A study of Arabidopsis thaliana with 6 samples.

Results

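SPL7 is a transcription factor of the SBP-box family, best known in Arabidopsis thaliana as the regulator through which plants answer a shortage of copper. In wild-type plants short of copper it is known to act on genes for copper uptake, on the iron superoxide dismutase FSD1 that can stand in for copper/zinc superoxide dismutases, and on microRNAs that lower the messages of copper proteins. The comparison described here is the spl7 mutant against the wild type (Col-0), both raised on standard MS medium with no copper salt added beyond the medium itself, and it asks which transcripts differ when SPL7 is impaired on that medium.

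Each genotype was represented by 1 RNA-seq library, which is 2 of the 6 libraries of the series. Both came from whole seedlings 7 days old that had been kept at 4 °C for 4 days and then grown at 22 °C in continuous white light. The labels name the mutant as spl7 without giving its allele. Libraries of the same genotypes from MS medium with 5 µM CuSO4 added share no library with the MS comparison, and their values stand beside it below. Expression was given in FPKM (fragments scaled for transcript length and for the number of mapped fragments in the library). All 27052 entries of the tables were joined, and 18658 of them had at least 5 FPKM in 1 or both MS libraries. For each, the ratio was log2 of spl7 over wild type after adding 1 FPKM to both values, and an entry was counted as higher or lower in spl7 when that ratio was at least 1 in size, a 2-fold difference. With 1 library a genotype there is no measure of the spread between replicates, so no p-value is given, and every difference compares 2 libraries. In whole seedlings, fewer cells of a type and less RNA per cell cannot be told apart.

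The libraries were alike in their broad measures. The FPKM values summed to 4496210 in wild type and 4694640 in spl7, 26.5% and 26.6% of the entries were listed at 0, and the median log2 ratio of the 18658 entries was -0.00, with quartiles of -0.15 and 0.15. SPL7 itself (AT5G18830, chromosome 5, 6275990-6280681, TAIR10) had 107 FPKM in the wild-type library on MS against 20.2 FPKM in the mutant, and 105 against 20.7 FPKM with copper. Its level thus matched the genotype label of each library, with part of the signal left in both spl7 libraries. Leaf and root defining genes were present in both MS libraries, and none of the 8 root and 5 leaf markers reached a 2-fold difference (median log2 ratios of -0.10 and 0.12). The trichome markers MYB0 (also named GL1) and GL2, described below, were counted as lower in spl7, with log2 ratios of -1.39 and -1.69. Of 9 seed and embryo genes at 5 FPKM or more, all were lower in spl7 (median -0.77), and 2 of them were counted; the part of seed material in the other differences was not tested.

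On MS, 101 entries were higher in spl7 (0.541% of those at the minimum level) and 196 were lower (1.05%). Counts in each gene list below stand against these shares, and the lists were chosen with earlier results of these data known. The counted entries fall into classes of unequal weight. Only 40 of the higher and 96 of the lower entries stood alone at their locus and were above 0 in both libraries. A further 44 and 75 stood alone but were listed at 0 in 1 library, and 17 and 25 shared their locus with another entry, so that their reads could have been split between them. In the copper pair, 0.989% of the entries were higher in spl7 and 0.814% were lower by the same rule. The plot of spl7 against wild-type FPKM shows how far the counted entries lie from the rest.

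**Figure D1:**
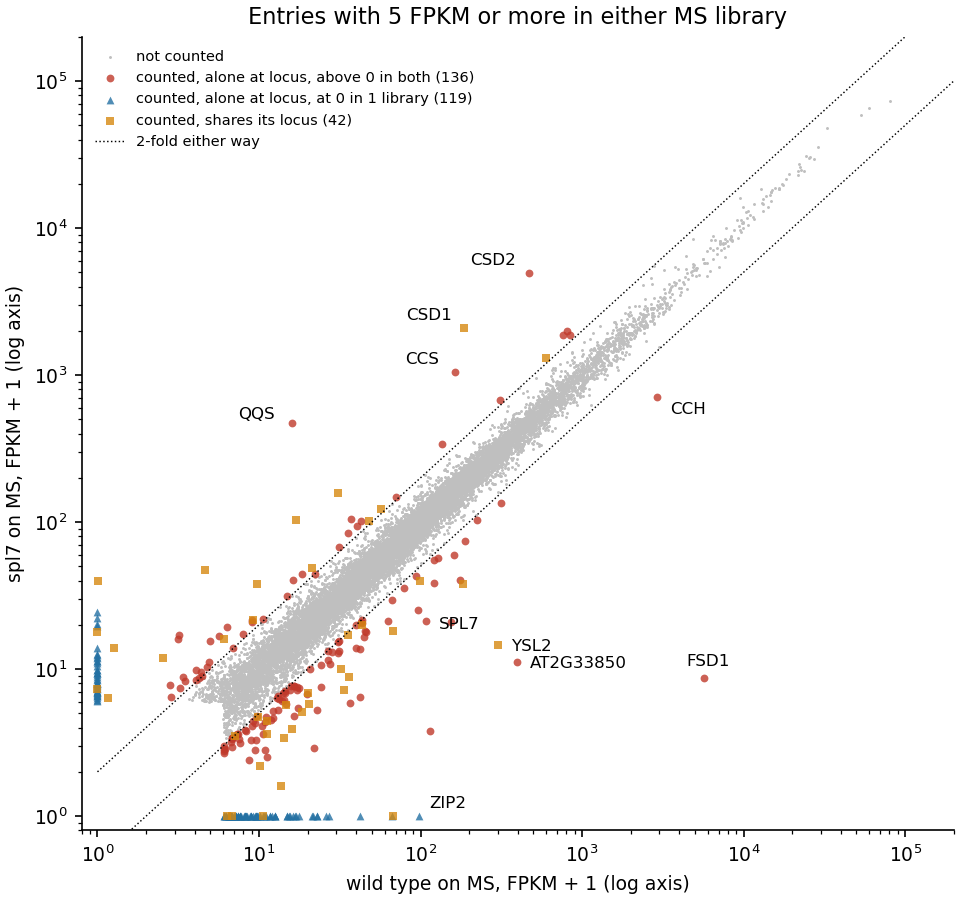
FPKM + 1 in wild type (x, log axis) and spl7 (y, log axis) on MS, 1 library each, for the 18658 entries at 5 FPKM or more; dotted lines mark a 2-fold difference. Most entries lie between the lines, FSD1 and CCH lie far below them at high wild-type levels, and CSD2, CSD1, CCS and QQS lie above them; the triangles along the axes are entries listed at 0 in 1 library.

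Among the counted entries, a few abundant messages carried most of the difference in FPKM. Summed over the 196 lower entries, spl7 had 12295 FPKM less than wild type, and FSD1 alone accounted for 45.9% of that sum and the copper chaperone gene CCH for 18.1%. Among the 101 higher entries the sum was 13842 FPKM, of which the plastid copper/zinc superoxide dismutase CSD2 made up 32.2% and its cytosolic relative CSD1 13.8%. The first 5 entries held 70.9% of the counted loss and 70.0% of the counted gain, the others on the gain side being AT1G12030, BGLU28 and DIN2. These sums leave out entries under 2-fold, some of which differed by more FPKM than FSD1 or CSD2. RBCS1A, not counted, was at 80300 FPKM on MS for the wild type and at 73393 for the mutant. The 15 antenna proteins, none of them counted, summed to 212548 and 259406 FPKM in the same order.

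The counted entries were not spread evenly over the levels. The share counted in either direction was 9.40% among the 1383 entries whose higher value was between 5 and 10 FPKM, 3.71% between 10 and 20 FPKM, 1.25% between 20 and 50 FPKM and 0.323% between 50 and 100 FPKM. From 100 to 1000 FPKM it was 0.359%, and above 1000 FPKM it was 1.31%. At 5 to 10 FPKM the central 95% of the log2 ratios ran from -2.82 to 1.42, against -0.45 to 0.45 at 100 to 1000 FPKM, so a 2-fold ratio at the low end lies well inside the range of its neighbours.

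Among copper uptake and reduction genes, 6 of the 11 at the minimum level were lower (54.5%, against 1.05% of all entries), with none higher. Apart from SPL7 itself this was the largest such share of the lists, but the lists were chosen with earlier results of these data known. YSL2, a transporter of metals bound to nicotianamine, stood at 301 FPKM in the wild-type library on MS, at 13.6 FPKM in the mutant, and at 14.5 and 11.8 FPKM in the copper pair. Only the wild-type library on MS was high, and the other libraries lay within a few FPKM of each other. YSL2 shares its locus with AT5G24390, which had only 4.58 and 5.02 FPKM, and the summed FPKM of the locus still gave a log2 ratio of -3.97. COPT2, a copper transporter of the plasma membrane, was at 153, 19.8, 28.5 and 23.5 FPKM in wild type and spl7 on MS and in wild type and spl7 with copper, and YSL3 at 128, 55.5, 54.0 and 44.1 FPKM, again with wild type on MS as the highest value. The metal transporter ZIP2 (96.5 FPKM), the bHLH factor AT1G71200 known as CITF1 (15.9 FPKM) and the reductase FRO4 (13.9 FPKM) were above 0 in wild type on MS and listed at 0 in the remaining 3 libraries. FRO5, a close relative of FRO4, showed the same pattern from 4.54 FPKM, under the minimum. In contrast, COPT1 (463 and 458 FPKM), COPT5 (447 and 566), AT2G26975 (349 and 343), FRO3 (134 and 161) and YSL1 (133 and 178) kept within 1.5-fold on MS. The median log2 ratio of the list was -1.19, or -0.02 over the 8 members above 0 in both libraries, and 0.00 with copper.

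Of 7 superoxide dismutase genes, 1 was lower and 2 were higher in spl7 on MS. FSD1, the abundant plastid iron enzyme, had 5647 FPKM in the wild-type library on MS against 7.64 FPKM in spl7, while both copper libraries were low, at 14.1 and 9.38 FPKM. CSD2 was at 466 and 4929 FPKM on MS and at 5164 and 4444 FPKM with copper, and CSD1 at 186 and 2090 FPKM on MS and at 1985 and 2035 FPKM with copper. For these 3 genes the wild type on MS was the library that stood apart, and the spl7 values on MS lay close to both copper values. CSD1 shares its locus with emb2411 (16.4 and 9.54 FPKM), too low to alter its direction. The 4 remaining members were not counted: FSD2 was at 81.9 and 68.9 FPKM, FSD3 at 165 and 112, the peroxisomal CSD3 at 165 and 187 and the mitochondrial manganese enzyme MSD1 at 894 and 788. FSD3 was also lower in spl7 with copper, at 165 and 115 FPKM.

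Among the targets of copper microRNAs, 5 of 11 were higher in spl7 on MS and none was lower. Besides CSD1 and CSD2 these were CCS, the chaperone that loads copper/zinc superoxide dismutase (162 and 1040 FPKM), the plantacyanin gene ARPN (35.9 and 105) and the laccase gene LAC2 (1.79 and 6.75). IRX12 and LAC17, laccases of lignifying cell walls, had smaller ratios, 0.90 and 0.69 on the log2 scale, from 63.0 and 119 FPKM and from 53.2 and 86.7 FPKM. LAC3 (47.66 and 49.95 FPKM), LAC13 (13.8 and 12.3), LAC7 (51.9 and 39.4) and the cytochrome oxidase subunit gene AT3G15640 (209 and 228) were closer to equal. The list had a median of 0.90 on MS against -0.00 with copper. ARPN differed from CCS and the dismutases in 1 respect, since its copper values (172 and 208 FPKM) were above that of spl7 on MS.

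**Figure D2:**
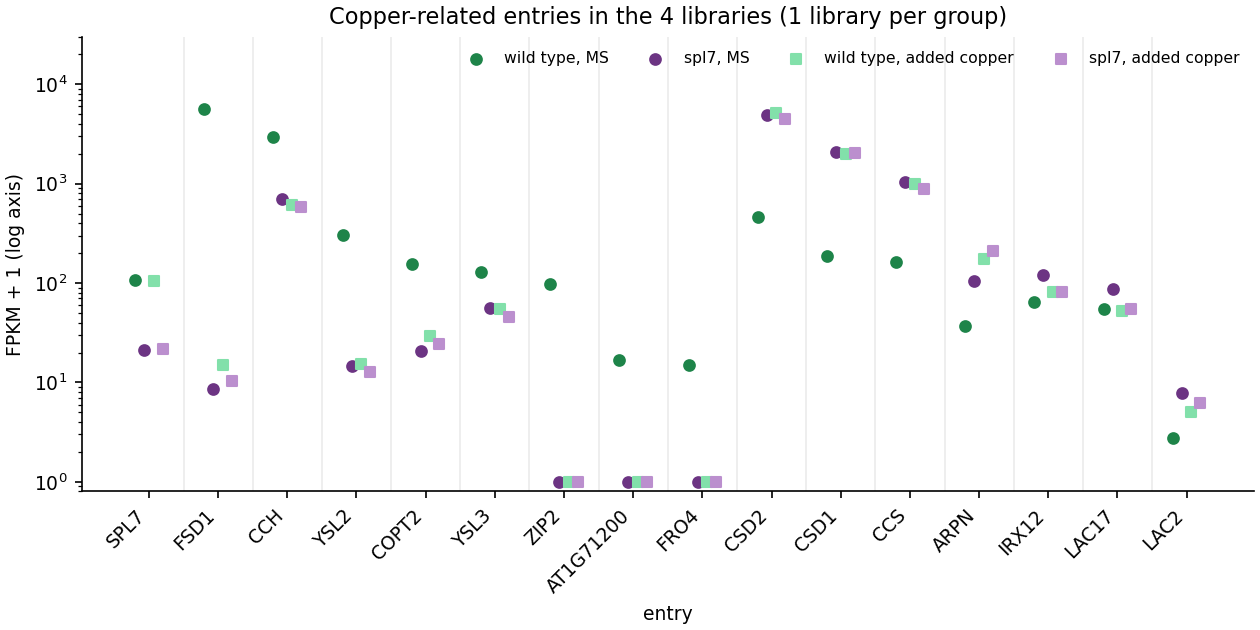
FPKM + 1 (log axis) of 16 copper-related entries in wild type (green) and spl7 (purple) on MS (circles) and with added copper (squares), 1 library per point. In all but LAC17, wild type on MS is the highest or the lowest of the 4 values. SPL7 follows the genotype, with 107 and 105 FPKM in wild type without and with copper. All but IRX12 and LAC17 passed the 2-fold rule on MS.

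Copper chaperones and ATPases were mostly level. CCH was lower in spl7 on MS (2929 and 703 FPKM, against 615 and 579 FPKM with copper) and CCS was higher, while the 8 remaining members were not counted. The related chaperone ATX1 was at 793 and 746 FPKM, and the ATPases PAA1 (516 and 465), RAN1 (267 and 264), HMA1 (231 and 240) and HMA5 (25.3 and 28.4) were within 1.2-fold. COX17, which carries copper to cytochrome oxidase, was at 72.9 and 44.6 FPKM on MS and at 77.6 and 94.3 FPKM with copper; it lies at 1 locus with MT3, a metallothionein gene. None of the 11 other copper proteins at the minimum level was counted. Plastocyanin, the copper carrier of photosynthetic electron transport, was at 1699 and 2060 FPKM for PETE1 and 22591 and 24703 FPKM for DRT112, and the largest ratio of that list was -0.67 for the metallothionein gene MT1C (543 and 340 FPKM).

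Of the counted entries, 2 were looked up beside copper microRNA genes after their values were seen, and other neighbours of such genes are not described here. AT2G47010, which lies next to the MIR408 gene in the RefSeq annotation, was at 41.0 and 5.41 FPKM on MS and at 7.66 and 5.46 FPKM with copper. AT5G14550, whose RefSeq span holds MIR398b, was at 66.4 and 17.1 FPKM on MS and at 18.4 and 15.7 FPKM with copper. In both, wild type on MS was the highest of the 4 libraries. Whether the reads belong to these genes or to transcripts of the neighbouring microRNA genes cannot be told apart from these values.

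Of 23 iron genes, 3 were lower in spl7 on MS (13.0%, against 1.05% of all entries) and none was higher. The median ratio was -0.18, just under the lower quartile of all entries (-0.15), and 16 of the 23 ratios were below 0. The 3 were the iron transporter gene IRT1 (61.7 and 20.2 FPKM), the ferric reductase gene FRO2 (30.0 and 11.9) and CYP82C4 (20.9 and 1.90), all root genes known to answer to the factor FIT. FIT itself, listed as FRU, was at 11.3 and 7.84 FPKM. The bHLH genes that mark iron shortage had the opposite order on MS, with 25.96 and 41.8 FPKM for BHLH100, 33.5 and 56.2 for BHLH101, 54.7 and 67.2 for BHLH038 and 37.6 and 40.3 for BHLH039, none of them counted. With copper, BHLH100 was at 25.4 and 12.5 FPKM, BHLH038 at 35.4 and 21.0 and BHLH039 at 20.6 and 17.5, while BHLH101 was at 26.4 and 32.4.

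Of 18 glucosinolate genes, 5 were lower in spl7 on MS (27.8%, against 1.05% of all entries) and none was higher, all 5 of the aliphatic branch. Glucosinolates are sulfur-rich defence compounds, made from methionine (aliphatic) or tryptophan (indolic). The counted members were MAM1 (43.6 and 15.5 FPKM) and BCAT4 (19.4 and 4.78) of methionine chain elongation, CYP79F1 (9.53 FPKM and listed at 0) and CYP83A1 (78.3 and 34.7) of core synthesis, and the regulator MYB29 (13.1 and 5.87). With copper their values were 29.2 and 28.2 FPKM for MAM1, 14.1 and 10.4 for BCAT4, 3.59 and 6.82 for CYP79F1, 57.8 and 64.3 for CYP83A1 and 11.9 and 9.63 for MYB29, none of them counted. BCAT4 shares its locus with IKU2, which was at 0.119 FPKM and at 0. The flavin monooxygenase gene FMO GS-OX3, which oxidises aliphatic glucosinolates and was not in the list, was at 10.9 and 3.49 FPKM on MS and at 4.80 and 4.73 FPKM with copper; it was picked out after its values were seen. The other 13 members were not counted. They included the indolic genes CYP83B1 (294 and 311 FPKM), CYP79B2 (109 and 108) and CYP79B3 (136 and 128), but also aliphatic genes, namely CYP79F2 (10.4 and 8.65), SOT17 (36.8 and 36.4), SOT18 (106 and 114) and the regulator MYB28 (113 and 108). Of the counted members, CYP79F1, MYB29 and BCAT4 lay under 20 FPKM in both MS libraries, a range in which counted entries were more common. The branches were not compared by a test.

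Of 12 sulfur-deficiency markers, 1 was counted as higher in spl7 on MS and none as lower. All 12 ratios were above 0 on MS, from 0.09 for AT1G04770 and 0.11 for SULTR2;1, which lie within the quartiles of all entries, to 1.29, and the median was 0.51 on MS and with copper. BGLU28, a beta-glucosidase known to break down glucosinolates in sulfur-short plants, was the counted member, at 766 and 1871 FPKM on MS and at 647 and 1615 FPKM with copper. LSU1 was at 2774 and 5474 FPKM, ATSDI1 at 2369 and 4088, LSU3 at 869 and 1441 and the sulfate transporter SULTR1;1 at 24.1 and 32.2, with the same order in the copper pair. In 2 pairs that share no library, the spl7 value was the higher one for each of these 5 genes.

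Phosphate starvation genes had the second highest median of the lists, 0.61, with 2 of 12 counted and 11 of 12 ratios above 0. The non-coding RNA gene IPS1 was at 42.0 and 101 FPKM, its relative AT4 at 406 and 811, the galactolipid synthase genes MGDC and MGD2 at 39.5 and 93.5 and at 72.1 and 127, SPX3 at 19.0 and 36.7 and the sulfolipid gene SQD2 at 650 and 943. AT4 was just short of the 2-fold rule, with a ratio of 0.996. With copper the median was 0.14, and IPS1 was at 59.6 and 75.4 FPKM and SPX3 at 27.8 and 28.2. PAP14, a purple acid phosphatase gene outside the list, was at 17.4 and 43.3 FPKM on MS and at 25.7 and 33.4 FPKM with copper. Abscisic acid and cold genes had a median of 0.43 with none of 11 counted, and jasmonate genes a median of 0.28 with VSP2 higher (34.3 and 83.0 FPKM) and the lipoxygenase gene AT1G72520 lower (13.4 and 5.83).

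**Figure D3:**
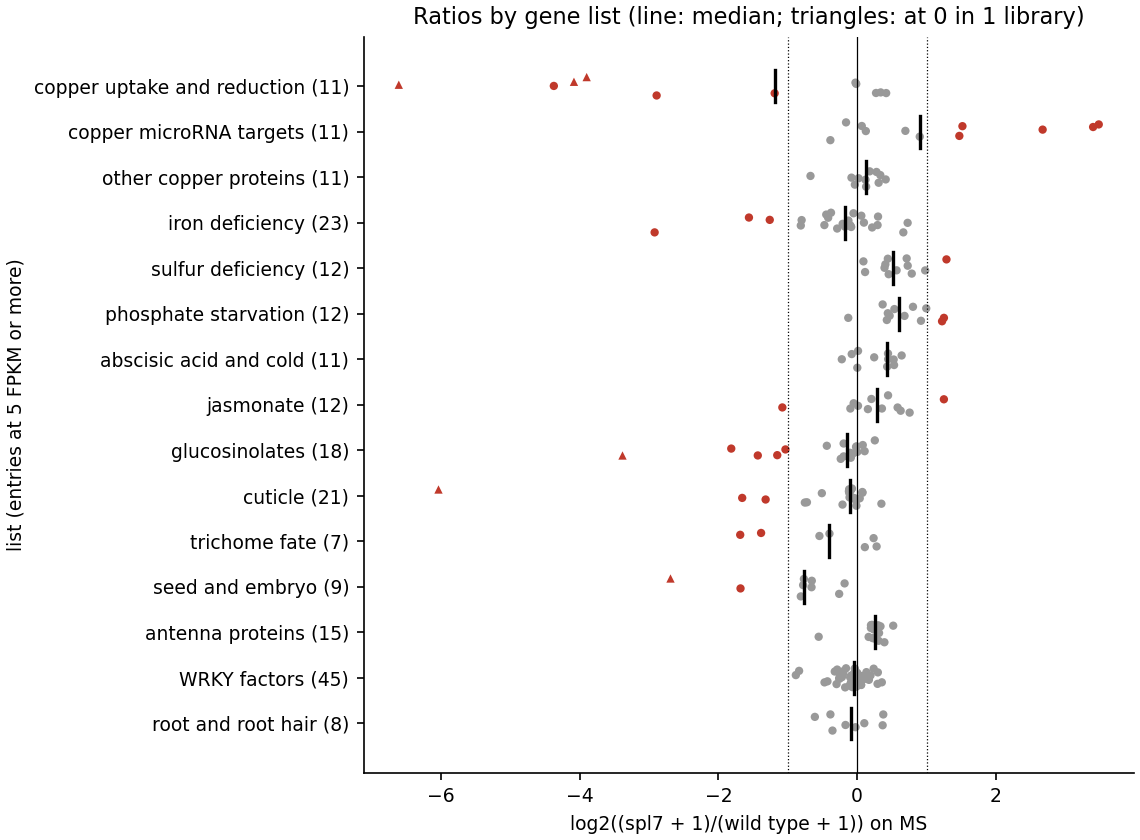
Log2 ratio of spl7 over wild type on MS (x) for each member at 5 FPKM or more of 15 lists and families (y, number of members in brackets); red points passed the 2-fold rule, triangles were at 0 in 1 library and the bar is the median. Copper uptake lies to the left, microRNA targets, sulfur and phosphate genes to the right, and the WRKY and root genes around 0.

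Surface genes of the shoot were lower in spl7 at a small number of steps and at the same levels in both media. In the cuticle list 3 of 21 were counted, all lower. CER1, an enzyme of alkane wax synthesis, was at 121 and 37.6 FPKM on MS and at 127 and 31.5 FPKM with copper. CYP77A6, which hydroxylates cutin monomers, was at 44.1 and 17.1 FPKM on MS and at 42.0 and 16.2 FPKM with copper. AT5G33370, a GDSL lipase-family gene known as CUS2, was at 65.2 and 65.5 FPKM in the wild-type libraries without and with copper, and was listed at 0 in both spl7 libraries. Outside the list, the cutin P450 genes CYP86A4 (35.7 and 4.87 FPKM on MS, 28.6 and 6.63 with copper) and CYP86A7 (9.80 and 8.06 FPKM in wild type, listed at 0 in spl7) had the same direction. Several abundant wax and cutin genes were level on MS, among them CER3 (616 and 610 FPKM), KCS1 (760 and 704) and GPAT4 (315 and 291). Other abundant members were lower in spl7 in both pairs, short of 2-fold. PEL3 was at 314 and 190 FPKM on MS and at 309 and 177 with copper. LTP2 was at 1019 and 716 FPKM on MS and at 1294 and 791 with copper. Of the 21 ratios on MS, 17 were below 0 and 4 above, and the list had a median of -0.11.

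Trichome regulators showed 2 of 7 members lower and none higher. MYB0, the gene also named GL1 that starts trichome fate, was at 11.1 and 3.65 FPKM on MS and at 6.15 FPKM and 0 with copper. GL2, a homeodomain factor of trichome and root-hair patterning, was at 31.0 and 8.95 FPKM on MS and at 31.6 and 7.98 FPKM with copper; it is among the entries that share a locus, so its value depends on how reads were divided. MYB23, a relative of MYB0 that was reached through its family, was at 15.6 and 3.82 FPKM on MS and at 15.8 and 2.92 FPKM with copper. TTG1 (187 and 221 FPKM), EGL3 (19.6 and 14.7) and TRY (9.45 and 11.7) of the same regulatory group were not counted.

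Among the entries alone at their locus and above 0 in both MS libraries, the highest ratio was that of QQS, an orphan gene known to affect starch and the single counted member of 12 starch genes, at 15.1 and 469 FPKM on MS and 13.8 and 357 FPKM with copper. CSD2 and CCS, described above, came next. After them came NUDT24 (2.21 and 16.2 FPKM) and AT1G49570 (2.15 and 15.0), from a low level, where the classes of level above show wide ratios. NUDT24 and AT1G49570 were also higher in spl7 with copper, at 2.17 and 7.74 and at 2.93 and 7.89 FPKM. AT1G12030 was at 803 and 2004 FPKM on MS and at 629 and 1324 FPKM with copper, and DIN2, a beta-glucosidase gene known from dark-treated leaves, at 845 and 1862 FPKM and at 613 and 1623 FPKM. PYD4 (310 and 672 FPKM) and the carbonic anhydrase gene BCA3 (593 and 1306 FPKM, sharing its locus with AT1G23740) were among the other abundant higher entries. With copper they were at 390 and 673 and at 652 and 1620 FPKM. AT1G66100 was at 134 and 337 FPKM on MS and at 120 and 207 FPKM with copper. HKT1, a sodium transporter gene, was at 13.9 and 30.6 FPKM and MSRB4, a methionine sulfoxide reductase gene, at 69.3 and 148, both picked out after their values were seen.

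At the other end of the ratios, AT2G33850 was at 396 and 10.2 FPKM on MS and at 386 and 5.97 FPKM with copper, following the genotype in both pairs. MIOX2, an inositol oxygenase gene, was at 313 and 134 FPKM, BGLU18, a beta-glucosidase known to release abscisic acid, at 188 and 73.6, and AT4G28780 at 224 and 103. Their copper values were 178 and 99.0 for MIOX2, 231 and 96.0 for BGLU18 and 202 and 128 for AT4G28780, lower in spl7 in each case. AT3G45440 (7.72 and 1.41 FPKM) and AT1G51460 (10.2 and 1.51) were low entries with copper ratios of -1.71 and -1.54. ELF4, a component of the evening complex of the clock, was at 16.4 and 4.41 FPKM on MS but at 15.2 and 16.4 FPKM with copper, and was the single counted member of 12 clock genes.

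Several lower entries on MS were not lower with copper at all. AT2G18193 was at 175 and 39.7 FPKM on MS and at 301 and 343 FPKM with copper, and AT2G04050 at 94.8 and 24.2 FPKM and at 126 and 211 FPKM. AT2G25625 was at 114 and 2.77 FPKM on MS and at 4.90 and 20.0 FPKM with copper, so wild type on MS was high and the order of the genotypes turned in the second pair. Of the 96 lower entries that stood alone and above 0, 20 were also lower by the 2-fold rule with copper, 45 had a copper ratio within 0.5 of 0 on the log2 scale and 3 were counted as higher. For the 40 higher entries the numbers were 9, 16 and 0. The median ratio of the 96 was -1.22 on MS and -0.34 with copper, and that of the 40 was 1.24 and 0.68. Because these entries were picked by their MS ratio, a smaller ratio in the second pair is what any selected set tends to show, and nothing is read from it.

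**Figure D4:**
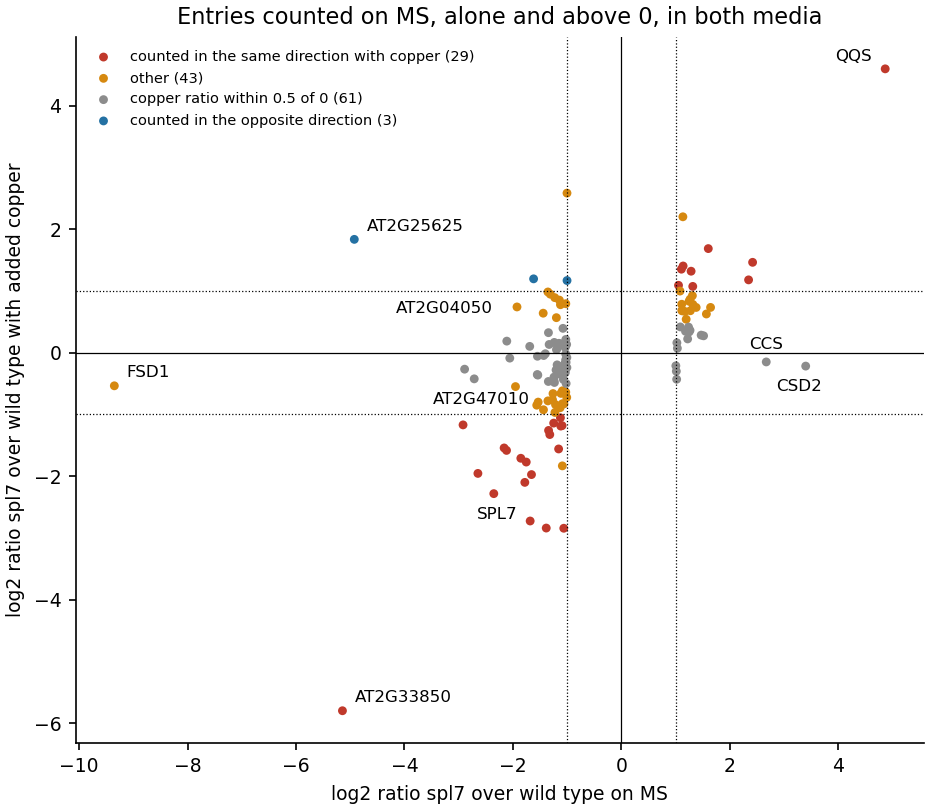
Log2 ratio of spl7 over wild type on MS (x) and with added copper (y) for the 136 entries counted on MS that stood alone at their locus and were above 0 in both MS libraries, 1 library per genotype and medium. FSD1, CSD2 and CCS lie near the horizontal line at 0, SPL7, AT2G33850 and QQS lie far from 0 on both axes, and AT2G25625 lies on opposite sides.

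Counts by gene family follow, beside 1.05% lower and 0.541% higher among all entries at the minimum level. None of 45 WRKY factors, 22 expansins or 25 xyloglucan transferases was counted, and 0 of 15 antenna proteins, although 14 of these had a ratio above 0 (median 0.25, and 0.08 with copper). P450 genes gave 1 higher and 7 lower of 127 (5.51% lower), MYB factors 3 lower of 66 (4.55%) and NAC factors 1 higher and 2 lower of 49 (4.08% lower). These shares of lower entries were above that of all entries, but the lower MYB and NAC members stood at low levels. In wild type on MS, MYB23 was at 15.6 FPKM, MYB29 at 13.1 and MYB0 at 11.1. Of all entries, 3.71% were counted in either direction at 10 to 20 FPKM and 9.40% at 5 to 10 FPKM. Whether these families differ beyond their level was not tested. NAC044 was at 18.9 and 5.79 FPKM and NAC103 at 8.727 and 3.803. The higher member, NAC027, was at 3.64 and 46.1 FPKM on MS and at 46.7 and 47.0 FPKM with copper, while AT1G64100 at the same locus was at 12.6 and 0.592 FPKM on MS. In the SPL family SPL8 joined SPL7, with 8.77 and 7.48 FPKM in the wild-type libraries without and with copper and 0 in both spl7 libraries, and the 11 other members, SPL1 (355 and 329 FPKM) and SPL12 (181 and 189) among them, were not counted. Of 11 ZIP and IRT transporters, 3 were lower, IRT1, ZIP2 and ZIP7, the last with 7.22 and 7.59 FPKM in the wild-type libraries and 0 in both spl7 libraries.

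Entries listed at 0 need their own reading, because the value 0 stands for a range that depends on length. Among the entries alone at their locus, 97.2% of those up to 300 bp long were at 0 in wild type on MS, 46.7% of those between 751 and 1000 bp and 5.00% of those above 5000 bp. The first percentile of the values above 0 decreased with length too, from 8.76 FPKM to 2.76 and 1.09 FPKM, and in spl7 from 11.0 FPKM to 2.69 and 0.951 FPKM. A 0 in a short gene can therefore stand for several FPKM. When each 0 was set to the first percentile for its length, 48 of the 79 lower and 18 of the 46 higher entries with a 0 still reached 2-fold.

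**Figure D5:**
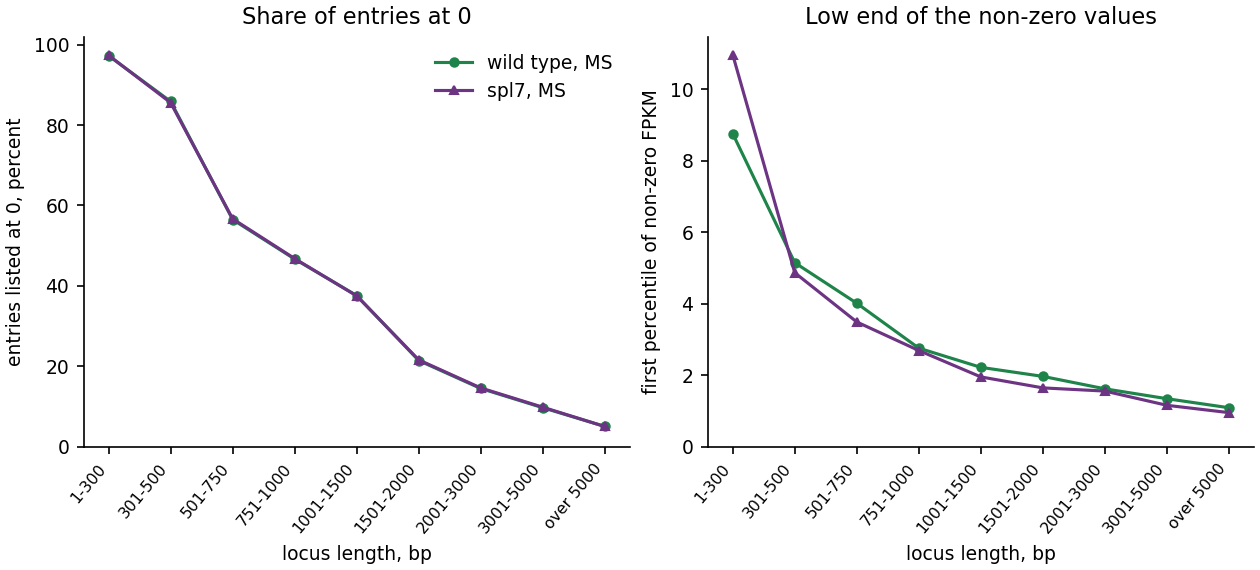
Share of entries listed at 0 (left, percent) and first percentile of the non-zero FPKM values (right) by locus length in bp, for wild type (green circles) and spl7 (purple triangles) on MS, over entries alone at their locus. Both libraries drop together, from over 97% at 0 in the shortest class to 5.00% in the longest.

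Entries listed at 0 in spl7 on both media outnumbered the reverse. There were 33 entries with 5 FPKM or more in both wild-type libraries and 0 in both spl7 libraries, and 4 with the opposite pattern. At 10 FPKM or more in both wild-type libraries the numbers were 10 and 0. The 10 included AT5G33370, HO3, a heme oxygenase gene (22.0 and 22.6 FPKM in wild type without and with copper), LCR67, a defensin gene (41.1 and 85.4), AT1G65450 (26.2 and 22.8), AT4G19240 (24.9 and 24.6), AT4G24420 (21.9 and 26.2), AT3G52550 (20.2 and 20.5) and AT5G15360 (16.8 and 21.5). The 33 lay on all 5 chromosomes, 8, 3, 3, 7 and 12 in order. By medium, 14 entries had 5 FPKM or more in both copper libraries and 0 in both MS libraries, and 2 had the reverse. Another 3 had 5 FPKM or more in wild type on MS and spl7 with copper and 0 in the others. The reverse of that pattern held for 6 entries. How these counts compare with 33 and 4 was not tested. Of the 75 lower entries alone at their locus and at 0 in 1 MS library, 36 were again above 0 only in wild type in the copper pair, whereas 5 of the 44 higher ones were again above 0 only in spl7. The 10 entries at 0 in wild type on MS with the highest spl7 values, among them AT4G37095 (23.6 FPKM) and AT1G13608 (21.2), were 165 to 967 bp long, in the range where a 0 is common. The same range holds 5 of the 10 entries at 0 in both spl7 libraries and at 10 FPKM or more in wild type, LCR67, AT4G24420 and AT3G52550 among them, at 207 to 830 bp.

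Shared loci formed 42 of the 297 counted entries. In 6 of them the partner was counted in the opposite direction, and in 34 the summed FPKM of the locus differed by less than 2-fold. AT2G47640 was at 183 and 36.8 FPKM while UXS4 at the same locus was at 56.1 and 121. LAP3 was at 35.1 and 7.78 FPKM while RBL13 was at 8.67 and 36.7, and their sum had a log2 ratio of 0.02. For such pairs, a difference between the genotypes and a different division of the same reads cannot be told apart. MAPR2 (0.00373 and 38.8 FPKM) belongs here, with AT2G24945 at 181 and 146 FPKM and a summed ratio of 0.03.

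Peaks of SPL7 binding came from seedlings carrying a FLAG-tagged SPL7 under the constitutive 35S promoter on MS, with spl7 as the negative control, and were given as 1 list of 1535 peaks, each with the authors' score. A peak lay within 1 kb of 8.31% of all entries at the minimum level, of 4.95% of the higher entries (5) and of 4.08% of the lower entries (8). By falling score these 13 entries were SPL7 (score 1104), AT5G14550 (743), AT3G54060 (515), GL2 (290), MAPR2 (288), AT2G47010 (283) and BCA3 (244). Then came FSD1 (236), CSD2 (229), CCH (208), DIN2 (198), BGLU28 (191) and PDF1.4 (184). The median score of the 1535 peaks was 224. The tagged line carries an added SPL7 sequence, so binding at the SPL7 gene and reads of that sequence cannot be told apart. AT3G54060 shares its locus with HCEF1 (3184 and 3317 FPKM on MS). CSD1, CCS, COPT2, YSL2, YSL3, ZIP2, FRO4, AT1G71200, ARPN, LAC2 and QQS had no peak within 1 kb in the list. DRT112, which was not counted, had a peak with a score of 3100.

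Just inside the rule for lower entries were XBAT34 (12.0 and 5.51 FPKM), AT4G19590 (5.77 and 2.38) and AT5G28520 (5.82 and 2.40), with ratios of -1.002, -1.002 and -1.004, and just outside it AT2G27930 (8.37 and 3.70), AT4G10265 (12.6 and 5.85) and AT2G18010 (20.2 and 9.69), with ratios of -0.996, -0.991 and -0.987. For higher entries the nearest inside were AT4G15990 (21.1 and 43.3 FPKM), AT1G80980 (3.41 and 7.91) and MEE3 (5.90 and 13.0), and the nearest outside ICS2 (47.5 and 95.9), AT4 and AT3G27250 (66.0 and 132). ICS2, a gene of isochorismate synthesis, was at 49.98 and 89.4 FPKM with copper.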

How the data were processed

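RNA of wild-type and spl7 seedlings was sequenced on the HiSeq 2000, 1 library per genotype and medium. The authors deposited 1 FPKM value per gene entry; per the submitters' processing notes CASAVA 1.8.2, TopHat, Bowtie and Cufflinks were used on TAIR10, and per the series' design text reads were kept only if uniquely mapped. The versions of TopHat, Bowtie and Cufflinks and the read depth were not given in the sources used here, so no interval from counting error is given. Each peak of the deposited list carries the authors' score and no replicate. Whether counting used strand is not stated.

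From the files, entries were joined on name and locus, and log2((spl7 + 1)/(wild type + 1)) was computed with pandas 2.3.3 and numpy 2.4.6 on Python 3.11.15; figures used matplotlib 3.10.9. Entries at 5 FPKM or more in either library were counted at 2-fold. Starts were written 1-based. Of the 27052 entries, 26909 were matched to a locus code through RefSeq's gene table (TAIR10.1), used for names and neighbours only. The rule for named genes took SPL7, the copper lists, up to 6 counted members of other lists or families, the highest and lowest ratios, gains and losses, entries at 0, entries with a peak and those nearest the threshold. The 31 lists (357 rows), 18 families and the rule were chosen with earlier results of these data known. The counting rule was checked on simulated data. Alternatives were another pseudocount, minimum, fold, scaling, peak distance, and leaving out entries at 0 or sharing a locus. No test was made, since each group is 1 library; the 2 libraries may also differ by plating or extraction, which the labels do not give. Organelle genes were left out of the named genes.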

Additional observations from a re-analysis of the deposited data

Results flagged for a closer look

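Some entries counted on MS were counted in the opposite direction in the copper pair; these differences between the media were not tested, since each group is 1 library. There were 20 such entries, 13 lower on MS and higher with copper and 7 the reverse, and 8 of the 20 were above 0 in all 4 libraries. AT2G25625 had a log2 ratio of -4.93 on MS and 1.83 with copper, from 114 and 2.77 FPKM and from 4.90 and 20.0 FPKM. AT4G12735 had -1.62 and 1.196, from 40.9 and 12.7 FPKM and from 60.6 and 140 FPKM, and the ubiquitin ligase gene XBAT34 had -1.002 and 1.17. AT3G54060 had -1.64 and 1.30, but it shares its locus with HCEF1, which was at 3184 and 3317 FPKM on MS. AT5G04790 and AT4G37095 had ratios of 4.34 and 4.62 with the pseudocount of 1, which are no folds because wild type on MS and spl7 with copper were at 0; their loci are 165 and 223 bp long, where most entries are listed at 0.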

How the results depend on the processing

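The counts of 101 higher and 196 lower entries kept within 1.5-fold with a pseudocount of 0.1 (118 and 232), after scaling to the same median (103 and 194) or total (93 and 216), without shared loci (84 and 171) and, in an alternative chosen after seeing the data, with each 0 set to the first percentile for its length (73 and 165). With a pseudocount of 5 the higher count was 80 and the lower 130. The counts moved further to 308 and 397 with no minimum or a minimum of 1 FPKM, 34 and 61 with a minimum of 20 FPKM, 440 and 590 at 1.5-fold, 59 and 99 at 4-fold, 55 and 117 without entries at 0, and 40 and 96 without these and shared loci. Within 3 kb, 23 counted entries had a peak. No ratio of the 150 named genes changed sign, 42 moved with a pseudocount of 5, and list medians moved by at most 0.22 under the other pseudocounts and scalings. Without entries at 0, the copper uptake median went from -1.19 to -0.02. No paired analysis was possible because each group holds 1 library. Depth is unknown.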

Other observations

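The genes in this paragraph were chosen after their values were seen, from the counted entries alone at their locus and above 0 in both MS libraries, and carry no test. OSM34, an osmotin-like gene, was at 160 and 58.6 FPKM in wild type and spl7 on MS and at 168 and 88.2 FPKM with copper. SUC5, a sucrose transporter gene, was at 27.4 and 12.0 FPKM and at 19.0 and 8.62 FPKM, and MAP65-5, a microtubule-associated protein gene, at 14.6 and 6.21 FPKM and at 13.6 and 5.41 FPKM. For these genes spl7 was the lower library in both pairs. A further group was lower in spl7 on MS and had its highest level in spl7 with copper. BCS1 was at 42.4 and 19.6 FPKM on MS and at 50.3 and 66.4 FPKM with copper, AT2G41730 at 93.4 and 41.7 FPKM and at 129 and 233 FPKM, and AT5G13210 at 26.7 and 9.83 FPKM and at 41.4 and 82.8 FPKM. Whether this order would recur in other libraries was not tested, since each value is 1 library.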
